A study of Mus musculus with 2 samples.

Results

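The genes described here are *Kitl*, which encodes Kit ligand (also called stem cell factor), and *Kit*, which encodes its receptor. They are 2 of the 31053 genes counted in both single-nucleus libraries of this study. Both were selected on their counts in these libraries, so the levels by class of nuclei given below are the values that chose them and are given as a description. The nuclei came from the olfactory bulbs of adult WT mice injected with retroAAV-CAG-H2B-GFP, a retrograde virus that puts green fluorescent protein into the nuclei of neurons whose axons reach the injection site. In the AON library the virus was injected into the anterior olfactory nucleus, and in the pPCx library into the posterior piriform cortex. Both libraries hold nuclei sorted for GFP and the DNA dye DRAQ5, read with a 3′ droplet method. There was 1 library for each injection site and no uninjected control, so there is no replicate check: no test was run, every interval below is an exact 95% interval that covers counting error only, and library and injection site cannot be told apart.

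Kit is a receptor tyrosine kinase on the surface of cells. Kit ligand is made as a membrane protein, which can be held at the surface or cut off and released, and its binding brings receptor molecules together, which then phosphorylate each other and start the PI3-kinase, Ras-MAP kinase and Src-family pathways. The pair is best known from blood stem cells, germ cells, mast cells and pigment cells. In the cerebellum, Purkinje cells make the ligand and the inhibitory interneurons of the molecular layer make the receptor. In the olfactory bulb the projection neurons are the mitral and tufted cells, which are glutamatergic, and most other neurons are GABAergic granule and periglomerular cells.

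*Kitl* (ENSMUSG00000019966) lies on chromosome 10 from 100015630 to 100100416 on the plus strand of GRCm38, and *Kit* (ENSMUSG00000005672) on chromosome 5 from 75574916 to 75656722, also on the plus strand. In the GENCODE M21 annotation neither gene overlaps another. *Kitl* has 4 protein-coding transcripts there and *Kit* has 2. Counts taken at the 3′ end of a gene do not tell these transcripts apart, nor the forms of the ligand they encode.

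Of the barcodes in the files, 102 of 188 in the AON library and 63 of 74 in the pPCx library held 1000 or more genes and were kept as nuclei. The totals were 2963064 UMIs in the AON and 2412067 UMIs in the pPCx library, of which the barcodes left out held 3.19% and 0.443%. A nucleus counted as a projection neuron when its unique molecular identifiers (UMIs, each one captured RNA molecule) for *Slc17a7*, *Slc17a6*, *Tbx21* and *Cdhr1* outnumbered those for *Gad1*, *Gad2* and *Slc32a1*. It counted as GABAergic in the reverse case with 3 or more UMIs of the last 3 genes. This gave 25 projection neuron, 47 GABAergic and 30 remaining nuclei in the AON library, and 59, 2 and 2 in the pPCx library. Sorting for GFP thus did not limit a library to neurons that project to its injection site. For GFP in putative granule and periglomerular cells after injection of both sites, the paper proposes infected migrating neurons or spread of the virus. Transcripts of the eGFP reporter gave 3 UMIs in the kept AON nuclei and 1 in the kept pPCx nuclei. The median depth was 38129 UMIs in AON projection neurons, 26129 in AON GABAergic nuclei, 14336 in AON remaining nuclei and 34306 in pPCx projection neurons. No barcode occurred in both libraries.

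Markers that the rule did not use followed the classes in most nuclei. *Eomes*, *Reln*, *Lbhd2*, *Cck* and *Tbr1*, a list of projection neuron genes, summed to 2705 UMIs per 1000000 UMIs (CPM) in AON projection neurons and 2720 CPM in pPCx projection neurons, against 48.0 CPM in AON GABAergic nuclei. The reverse held for a list of GABAergic genes that includes *Meis2* and *Dlx1*, with 4493 CPM in AON GABAergic nuclei against 50.1 and 9.88 CPM in the projection neurons. Summed over the class, the remaining AON nuclei were led by oligodendrocyte genes (5707 CPM) and astrocyte genes (2726 CPM). The class was mixed: 10 of its 30 nuclei had 3 or more UMIs of the oligodendrocyte genes and 23 of the astrocyte genes. The same GABAergic list, at 1053 CPM over the class, reached 3 or more UMIs in 22 of the 30 nuclei. In the AON library, 8 of the 25 projection neuron nuclei were placed by only 1 or 2 UMIs of the rule's excitatory genes. These 8 summed to 368 CPM of the projection neuron list and 2032 CPM of the astrocyte list, and they held 4 of the 442 *Kitl* UMIs of the class and no *Kit* UMI. A list of cortical glutamatergic genes summed to 547 CPM in AON projection neurons and 128 CPM in pPCx projection neurons. *Cux2* alone gave 599 of the 611 AON UMIs of that list, while *Neurod6* and *Fezf2* had 1 UMI each there. The part of these markers in the *Kitl* levels was not tested.

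*Kitl* UMIs lay mainly in projection neurons, although the pPCx library holds too few other nuclei to show it there. In the AON library the 25 projection neuron nuclei held 442 *Kitl* UMIs, a summed level of 396 CPM (interval 360 to 434), while the 47 GABAergic nuclei held 15 UMIs, or 11.8 CPM (6.60 to 19.5). The 30 remaining nuclei held 0 *Kitl* UMIs, where a count of 0 allows up to 6.25 CPM. In the pPCx library the 59 projection neuron nuclei held 200 *Kitl* UMIs, or 85.9 CPM (74.4 to 98.7). The 2 pPCx GABAergic nuclei had none, and 1 of the 2 pPCx remaining nuclei had 3. Leaving aside the 2 pPCx classes of 2 nuclei each, of which the remaining nuclei stood at 224 CPM (46.2 to 655), the order of the summed levels was AON projection neurons, pPCx projection neurons, AON GABAergic nuclei and AON remaining nuclei. The first 3 had intervals that do not overlap. The last 2 did overlap, with an exact interval of 0 to 7.69 CPM in the AON remaining nuclei.

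**Figure D1:**
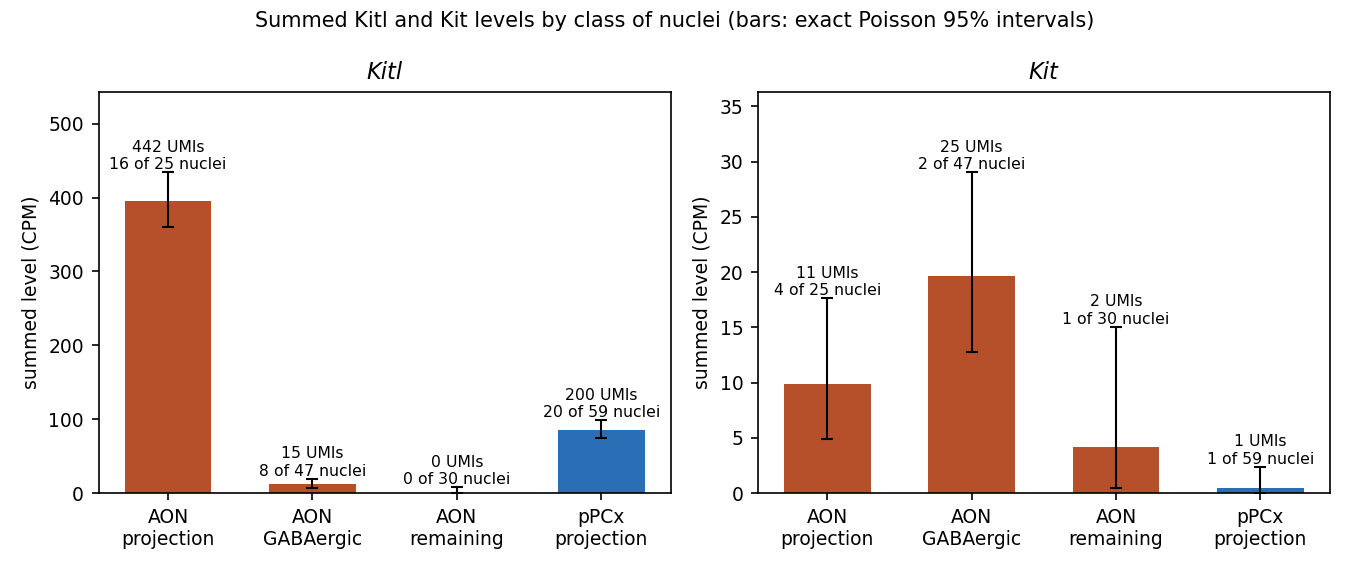
Summed level in CPM of *Kitl* (left) and *Kit* (right) by class of nuclei, AON classes in red and pPCx projection neurons in blue, with exact Poisson 95% intervals as bars and the UMIs and nuclei with a UMI printed above. *Kitl* stands at 396 CPM in AON projection neurons and 85.9 CPM in pPCx projection neurons, and *Kit* stays at or below 19.7 CPM in every class shown.

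Within AON projection neurons, *Kitl* was 33.5 times the GABAergic level (20.1 to 60.4), a log2 ratio of 5.02 with 0.5 UMI added to each sum. A ratio of at least 2 whose interval is clear of 1 is called here a higher or lower level. Of 12272 genes with 10 or more UMIs over both classes, 13.6% were called higher in the projection neurons, and 124 had a log2 ratio as large as that of *Kitl* or larger, *Kitl* included. As *Kitl* was picked on this contrast, nothing is read from that rank. The 15 GABAergic UMIs were themselves uneven. A nucleus of 18602 UMIs held 7 of them, and it also held 6 UMIs of the projection neuron list, 17 UMIs of *Gad1*, *Gad2* and *Slc32a1* and none of the excitatory genes. Another GABAergic nucleus had 2 *Kitl* UMIs, and 6 had 1 each.

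*Kitl* varied widely among the projection neurons of a library. In AON it was present in 16 of 25 nuclei, and the level per nucleus had a median of 184 CPM, a lowest value of 0 and a highest of 1346 CPM. The highest nucleus held 113 of the 442 UMIs, the next 69, and the first 3 together 54.3%. In pPCx it was present in 20 of 59 nuclei, with a median of 0 and a highest value of 610 CPM. One nucleus, the deepest of the library with 167296 UMIs, held 102 of the 200 pPCx UMIs, and the next held 22. Without that nucleus the pPCx level fell to 45.3 CPM, and without the AON nucleus of 113 UMIs the AON level was 318 CPM. When each nucleus was given the same weight, the levels were 291 CPM in AON and 44.4 CPM in pPCx.

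Depth bears on whether a nucleus shows the transcript at all. The share of nuclei with a *Kitl* UMI was 64.0% in AON projection neurons (42.5 to 82.0%), 33.9% in pPCx projection neurons (22.1 to 47.4%) and 17.0% in AON GABAergic nuclei (7.65 to 30.8%). After every nucleus was thinned to 3000 UMIs, which left out only 1 remaining AON nucleus, the shares were 40.0%, 6.78% and 6.38%. At that depth the pPCx share was near the GABAergic one and rested on 4 nuclei, although the summed levels stood apart. After thinning to 10000 UMIs, which left out 7 AON projection neurons, 2 pPCx projection neurons and 4 AON GABAergic nuclei, they were 66.7%, 19.3% and 4.65%. The Spearman correlation between *Kitl* per 10000 UMIs and total UMIs was 0.52 over the 25 AON and 0.40 over the 59 pPCx nuclei. The points of each share 1 library, and a nucleus of few UMIs can show only 0 or a high value.

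**Figure D2:**
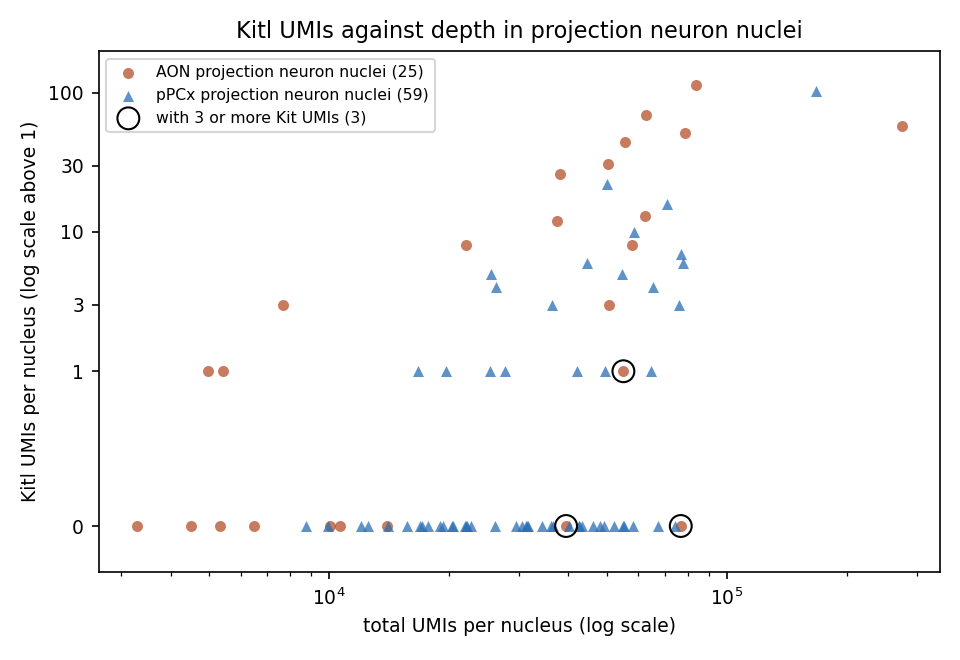
*Kitl* UMIs per projection neuron nucleus (log axis above 1) against total UMIs of the nucleus (log axis), AON nuclei as red circles and pPCx nuclei as blue triangles, with the 3 nuclei that held 3 or more *Kit* UMIs ringed. The highest AON nucleus has 113 *Kitl* UMIs and the highest pPCx nucleus 102, while many nuclei of similar depth have 0 and the ringed nuclei have 0 or 1.

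Between the libraries, *Kitl* was 4.60 times higher in AON than in pPCx projection neurons (3.89 to 5.47), a log2 ratio of 2.20. Of 13677 genes with 10 or more UMIs, 6.11% were called higher in AON and 7.76% lower. The ratio moved with the few nuclei that hold most of the UMIs. It was 3.32 on the log2 scale when nuclei over 3 times the median depth of their class were left out, 2.81 without the nucleus richest in *Kitl* of each library, and 2.71 with equal weights, higher in AON each time. The libraries also differ in which kinds of projection neuron they hold, as described next, so the ratio is over mixtures.

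In the pPCx library the nuclei that carried *Kitl* were those low in *Ebf1* and *Cntn6*. *Ebf1*, a transcription factor, and *Cntn6*, a cell adhesion molecule, are on the list of genes the study gives for its mitral cell group M1. Their summed level left a wide gap between nuclei: 37 stood at 1433 CPM or above and 22 at 100 CPM or below, and none lay between. The paper, using classifiers on regulon activity, placed most projection neurons of its piriform library in group M2 and few in M1. The split used here is not that typing, and its larger side is the one high in *Ebf1* and *Cntn6*. The 22 low nuclei held 190 of the 200 *Kitl* UMIs, a level of 185 CPM (160 to 214), with a UMI in 15 nuclei. The 37 high nuclei held 10, a level of 7.67 CPM (3.68 to 14.1), with a UMI in 5 nuclei. The low nuclei were thus 24.2 times higher (12.9 to 51.2). Without the nucleus of 102 UMIs the log2 ratio was 3.68 in place of 4.53. Among 12331 genes tested, 4.74% were called higher and 8.48% lower in the low nuclei, and 19 had a log2 ratio at least as large as that of *Kitl*, *Kitl* included. The median depth was 41132 UMIs in the low and 31440 in the high nuclei.

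The low nuclei were high for the list of the mitral cell group M2. The median summed level of that list was 3486 CPM in them and 541 CPM in the high nuclei. The list also reached 2877 CPM in the remaining AON nuclei, so it does not mark M2 cells alone. Cortical genes summed to 180 CPM in the low and 87.5 CPM in the high nuclei, and astrocyte genes to 89.8 and 299 CPM. Of the high nuclei with *Kitl*, one had 4 UMIs, one had 3 and 3 had 1. In 7 of the low nuclei there was no *Kitl* UMI, and the deepest of these had 40164 UMIs. Those of 31581, 12075, 9963 and 8767 UMIs had 2312, 1491, 1205 and 684 CPM of the list of mitral cell group M3. Those of 40164, 30593 and 19012 UMIs had 0, 32.7 and 210 CPM of it. A low nucleus with 1949 CPM of the M3 list had 1 *Kitl* UMI. The low nuclei are thus a mixture. The M3 list also reached 2766 CPM in a high nucleus.

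In the AON library the highest *Kitl* levels were in nuclei rich in the study's list for tufted cell group T1. The choice of this list and of the one below for a split of the AON nuclei was made after their values were seen, with the same limit of 500 CPM, so the levels describe these nuclei and no more. The 7 nuclei above the limit for T1 held 290 *Kitl* UMIs, 708 CPM (629 to 794), and each of the 7 had at least 8 UMIs, from 139 to 1346 CPM. Of the 402 T1-list UMIs in AON projection neurons, 291 were *Olfr111*, an olfactory receptor gene next to its close relative *Olfr110*, with 14; reads of such a pair can be split. The shallowest of the 7 nuclei had 37510 UMIs. A pair of *Kitl*-rich AON nuclei were poor in the T1 list. One of 78397 UMIs had 51 *Kitl* UMIs with 12.8 CPM of the T1 list and 1862 CPM of the M2 list, and the deepest, of 274993 UMIs, had 58 with 21.8 CPM of T1 and 5404 CPM of M2. In AON, 6 nuclei had over 1000 CPM of the M2 list and under 500 CPM of the M1 list. Of these 6, 3 had a *Kitl* UMI: this pair and a T1-rich nucleus of 62240 UMIs. The rest of the 6 were each placed by 1 UMI of the rule's excitatory genes. In both libraries, then, some nuclei rich in the M2 list and poor in *Ebf1* and *Cntn6* carried *Kitl*. T1-rich nuclei occurred in AON only: the highest pPCx nucleus had 91.1 CPM of the T1 list. The T1-rich nuclei had 625 CPM of the cortical list, from 337 to 992, against 607 CPM in the 13 AON nuclei rich in neither list.

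The 5 AON nuclei above 500 CPM for the list of external tufted group ET2, which holds *Ebf2*, *Ebf3*, *Lhx1* and *Trp73*, had 1 *Kitl* UMI among them, 5.35 CPM (0.135 to 29.8). Of these nuclei, 3 were 39459, 54982 and 76634 UMIs deep, depths at which the T1-rich nuclei had 8 or more *Kitl* UMIs. The other 2 were of 10664 and 5318 UMIs and had only 1 or 2 UMIs of the rule's excitatory genes. Of the 9 AON projection neurons without *Kitl*, 4 were under 7000 UMIs. Over the 25 nuclei, the Spearman correlation of *Kitl* was 0.76 with the T1 list, 0.69 with the cortical list, -0.21 with the M2 list and -0.49 with the ET2 list. The cortical list had a median of 689 CPM in the 5 AON nuclei highest in *Kitl* and 71.3 CPM in the 9 without it, and its part in the *Kitl* levels was not tested. Between the same sets the projection neuron list had medians of 2633 and 1128 CPM, and the astrocyte list 48.0 and 261 CPM. Of the 8 AON nuclei placed by only 1 or 2 excitatory UMIs, 2 had a *Kitl* UMI, and the rest are among the 9 without it. The AON correlations include these 8 doubtful nuclei. Over the 59 pPCx nuclei the correlation was 0.63 with the M2 list and 0.13 with the cortical list. The nuclei of each value share a library, and their depths differ.

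**Figure D3:**
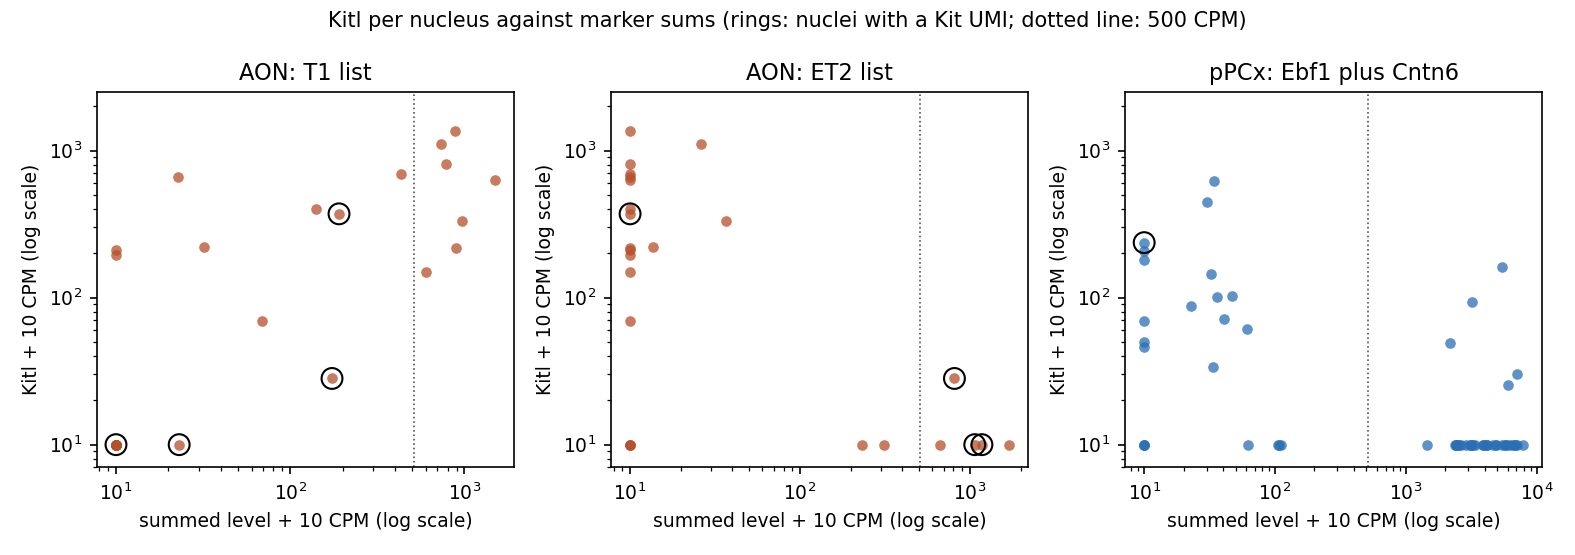
*Kitl* per projection neuron nucleus against the summed level of the T1 list (AON), the ET2 list (AON) and *Ebf1* plus *Cntn6* (pPCx), all in CPM with 10 CPM added and on log axes; rings mark nuclei with a *Kit* UMI and the dotted line 500 CPM. The 7 AON nuclei right of the line in the first panel all have *Kitl*, the 5 in the second have 1 UMI in all, and in the third 190 of 200 *Kitl* UMIs lie left of the line.

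*Kit* was found in few nuclei of any class. It had 25 UMIs in AON GABAergic nuclei, 19.7 CPM (12.7 to 29.0), and 11 UMIs in AON projection neurons, 9.84 CPM (4.91 to 17.6). The AON remaining nuclei held 2 UMIs in 1 nucleus, pPCx projection neurons 1 UMI in all, 0.429 CPM (0.0109 to 2.39), and the 2 pPCx GABAergic nuclei none. Within the AON library the projection neuron level was 0.501 of the GABAergic level, with an interval of 0.222 to 1.05 that includes 1. *Kit* was therefore not called between these classes, where 14.1% of genes were called lower in the projection neurons. Between the libraries the projection neuron levels were 11 UMIs against 1, a ratio of 22.9 whose interval runs from 3.33 to 987.

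The GABAergic *Kit* UMIs came from 2 of 47 nuclei. One held 13 *Kit* UMIs among 42011, or 309 CPM, and the other 12 among 25830, or 465 CPM; all other GABAergic nuclei had 0. Without the richer of these nuclei the class level fell to 9.76 CPM. The share of GABAergic nuclei with a *Kit* UMI was 4.26% (0.520 to 14.5%). *Th*, which encodes the rate-limiting enzyme of dopamine synthesis and marks dopaminergic periglomerular cells, had 8 UMIs in the first nucleus and 1 in the second, and *Slc6a3*, the dopamine transporter, had 1 and 0. The first of these nuclei held the only *Slc6a3* UMI of the 47. It also held 1 *Kitl* UMI and, of the rule's excitatory genes, 1 UMI of *Slc17a7* and 2 of *Cdhr1*. No other nucleus of the 47 had 3 or more UMIs of the excitatory genes. Both carried *Gad2* (37 and 18 UMIs), *Gad1* (17 and 14), *Meis2* (50 and 93) and *Synpr* (22 and 15), which granule and periglomerular cells share, and neither held *Calb1*, *Calb2*, *Penk*, *Vip* or *Pvalb*. With 2 nuclei, no type is named from these counts.

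Of the 11 *Kit* UMIs in AON projection neurons, 10 lay in nuclei with 0 or 1 *Kitl* UMI. A group of 3 AON nuclei held 4, 3 and 3 *Kit* UMIs, at 101, 39.1 and 54.6 CPM, and they were the 3 deep nuclei of the ET2 list just described, with 1166, 1057 and 800 CPM of it. They had 24, 83 and 26 UMIs of *Ebf1*, 20, 21 and 11 of *Ebf3* and 150, 302 and 156 of *Reln*, and 0, 0 and 1 of *Kitl*. The fourth AON nucleus had 1 *Kit* UMI with 8 *Kitl* UMIs and no *Ebf1*. None of the 7 T1-rich nuclei had a *Kit* UMI, where 0 UMIs of 409574 allow up to 7.32 CPM, against 53.5 CPM (25.6 to 98.3) over the 5 ET2-rich nuclei. Only 1 pPCx nucleus passed 500 CPM of the ET2 list, and it held neither gene. In all, 2 AON projection neurons had both genes, 14 had *Kitl* alone, 2 had *Kit* alone and 7 had neither. In pPCx the only nucleus with *Kit* (1 UMI) also had 16 *Kitl* UMIs.

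Of the genes that act with the pair, *Adam17*, a protease that cuts membrane proteins free at the cell surface, was called higher in AON projection neurons than in GABAergic nuclei, at 47.4 against 11.0 CPM, a ratio of 4.31 (2.36 to 8.40). It was at 39.6 CPM (23.8 to 61.8) in the remaining AON nuclei, an interval that includes the AON projection neuron level. In pPCx projection neurons *Adam17* was at 70.0 CPM, with a UMI in 45 of 59 nuclei. *Mmp9*, the other protease listed, had 1 or 2 UMIs in each of the AON projection neuron, AON GABAergic and pPCx projection neuron classes.

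The list of 22 genes of Kit signalling held 21 with 10 or more UMIs over the AON classes, of which none was called higher and 5 were called lower in the projection neurons, 23.8% against the 14.1% of all genes. Their median log2 ratio was -0.19, against -0.05 over all genes tested. The 5 were the adaptor *Grb2* (44.7 against 251 CPM), the Src-family kinases *Fyn* (111 against 368) and *Yes1* (14.3 against 104), the kinase *Jak2* (37.6 against 85.0), and *Map2k1* (34.9 against 186) of the MAP kinase cascade. These genes serve many receptors, so their levels are not those of Kit signalling itself. Of 8 genes that dampen the receptor, 6 could be tested and none was called. *Spred2* and *Spred1*, inhibitors of Ras-MAP kinase signalling, had ratios of 1.38 (1.17 to 1.61) and 1.22 (1.01 to 1.48), under the limit of 2.

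Between the libraries, 1 of 21 signalling genes was called higher in AON projection neurons, the PI3-kinase subunit *Pik3r1* with 71.6 against 33.1 CPM, and 1 lower, *Yes1* with 14.3 against 28.8 CPM, which is 4.76% each way beside the 6.11% and 7.76% of all genes. Of the 6 tested genes that dampen the receptor, *Sh2b3* was higher, with 11 UMIs against 3, a ratio of 7.64 (2.02 to 42.6). Among the pPCx nuclei, *Jak2* was lower in the *Ebf1*/*Cntn6*-low nuclei, with 36.1 against 85.2 CPM, and the other 20 signalling genes were not called, which is 4.76% lower beside the 8.48% of all genes.

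Among the related receptors, *Flt3*, a receptor tyrosine kinase of the same family as Kit, was called higher in AON projection neurons. It had 50 UMIs in AON projection neurons, 44.7 CPM, against 4 UMIs in GABAergic nuclei, 3.15 CPM, a ratio of 14.2 (5.22 to 54.2), and 64 UMIs in pPCx projection neurons, 27.5 CPM, with a UMI in 24 of 59 nuclei. Its ligand gene *Flt3l* had 1 UMI in AON and 3 UMIs in pPCx projection neurons. In pPCx, *Flt3* was also called higher in the *Ebf1*/*Cntn6*-low nuclei, at 42.9 against 15.3 CPM, a ratio of 2.80 (1.61 to 5.01). *Csf1r*, the microglial receptor of this family, had no UMI in any class, and *Pdgfra* had 2 UMIs in all. Of 5 related ligand genes tested between the AON classes, 2 were called higher in projection neurons, beside 13.6% of all genes. They were *Il34*, a ligand of the Csf1 receptor, with a ratio of 2.93 (1.54 to 5.87), and *Pdgfb*, with 3.13 (1.34 to 8.13). Between the libraries, 2 of 5 were called higher in AON projection neurons, beside 6.11% of all genes. They were *Pdgfc*, with a ratio of 2.86 (1.78 to 4.67), and *Pdgfd*, with 3.57 (1.30 to 10.7) from 12 UMIs against 7. In each comparison the other 3 were not called. *Pdgfc* was highest in the remaining AON nuclei, at 246 CPM.

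**Figure D4:**
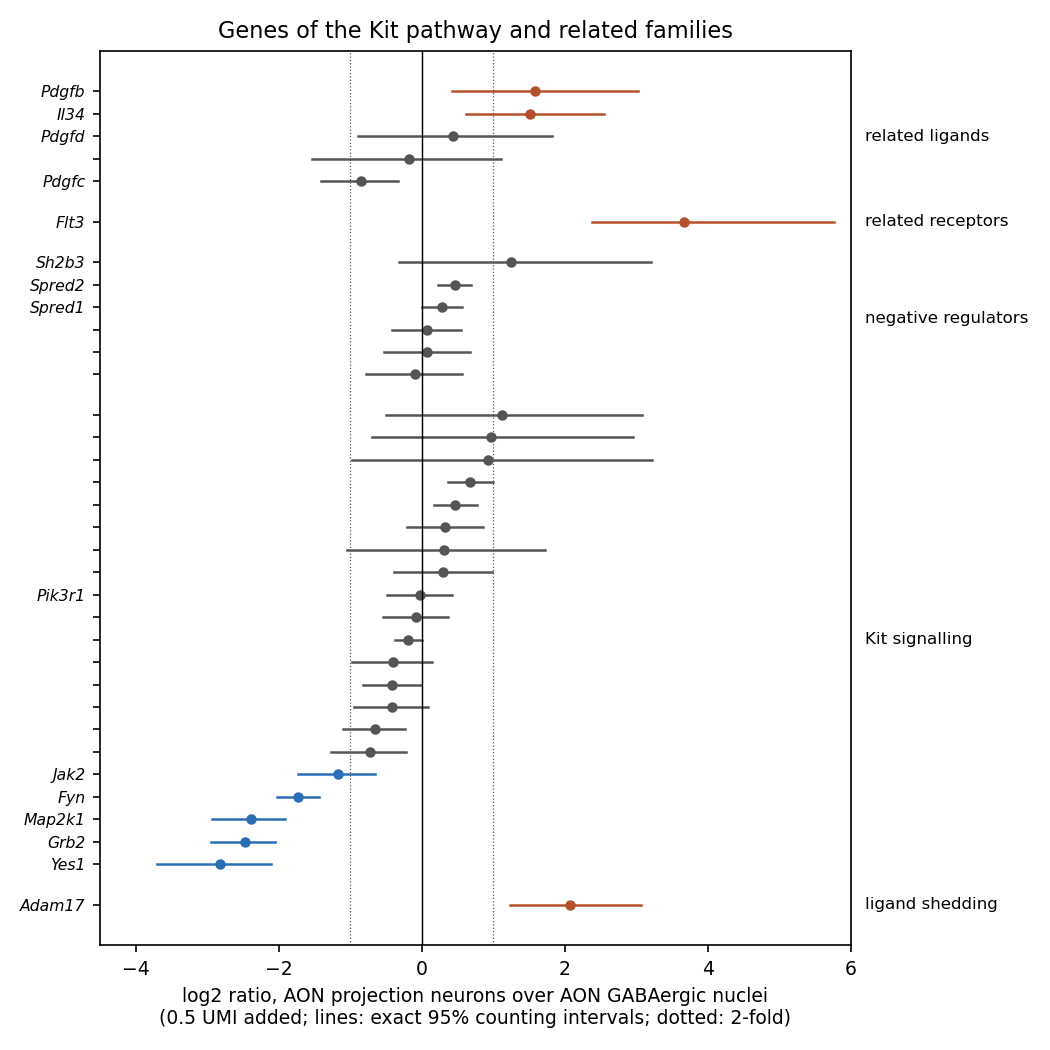
Log2 ratio of AON projection neurons over AON GABAergic nuclei for the genes of 5 lists with 10 or more UMIs; lines are exact 95% counting intervals, dotted lines mark a 2-fold ratio, red and blue mark genes called higher and lower, and genes not described in the text have no name. *Flt3*, *Adam17*, *Pdgfb* and *Il34* are called higher, 5 signalling genes from *Jak2* to *Yes1* are called lower, and no gene that dampens the receptor is called.

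The genes whose level per nucleus went most closely with *Kitl* were ranked over the 59 pPCx projection neurons, by Spearman correlation of UMIs per 10000, among 9518 genes with a UMI in at least 25% of the nuclei. The 10 highest were *Car10* (0.69), *Golim4* (0.67), *Lin7a* (0.65), *Nrp1* (0.64), *Gm15398* (0.63), *Dgkg* (0.63), *Dcc* (0.62), *Sgk3* (0.62), *Ptchd4* (0.62) and *Lrrc4c* (0.61). *Nrp1* encodes neuropilin 1, a receptor of semaphorins, and *Dcc* the receptor of the guidance protein netrin; *Lin7a* encodes a scaffold protein of synapses and *Lrrc4c* an adhesion protein of synapses. The points share 1 library, and 39 of the 59 nuclei have no *Kitl* UMI.

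Most of the 10 follow the same split of nuclei as *Kitl* itself. *Nrp1* was at 367 CPM in the *Ebf1*/*Cntn6*-low and 6.14 CPM in the high pPCx nuclei, *Gm15398* at 1042 and 25.3 CPM, and *Car10* at 540 and 37.6 CPM. *Dcc* differed less, at 1502 and 767 CPM. The 5 lowest were *Map2* (-0.60), *Cacna1e* (-0.58), *Gabra2* (-0.57), *Astn2* (-0.57) and *Cux1* (-0.56). *Gabra2*, a GABA-A receptor subunit on the M1 list, was at 21.5 CPM in the low and 1404 CPM in the high nuclei. Within the 22 low nuclei alone, where 15 have *Kitl*, *Car10* (0.84), *Ptchd4* (0.82), *Golim4* (0.81), *Dcc* (0.81) and *Lin7a* (0.80) were still among the 10 highest, beside *Samd5* (0.85) and *Grik1* (0.82). Over these 22 nuclei *Kitl* went with total UMIs at 0.64.

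The order did not carry over to AON as a whole. Over the 25 AON projection neurons, 9 of the 10 had a positive correlation with *Kitl* and 4 were above 0.5: *Car10* (0.64), *Lin7a* (0.63), *Sgk3* (0.60) and *Gm15398* (0.57). Of 8744 genes ranked in AON, 788 were above 0.5, and *Kitl* itself went with total UMIs at 0.52. With total UMIs taken out of the ranks, these 4 genes stood at 0.45, 0.43, 0.44 and 0.35. *Nrp1* was at 0.42, or 0.09 with total UMIs taken out, and *Lrrc4c* was at -0.05. Of the 5 lowest in pPCx, 4 were positive in AON, with *Cacna1e* at 0.58 and *Cux1* at 0.57. The genes highest in AON were *Doc2g* (0.85), *Igdcc3* (0.83) and *Cyp27a1* (0.81), which stood at 0.01, -0.02 and 0.21 in pPCx. Of 8026 genes ranked in both libraries, 21 were above 0.5 in both.

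**Figure D5:**
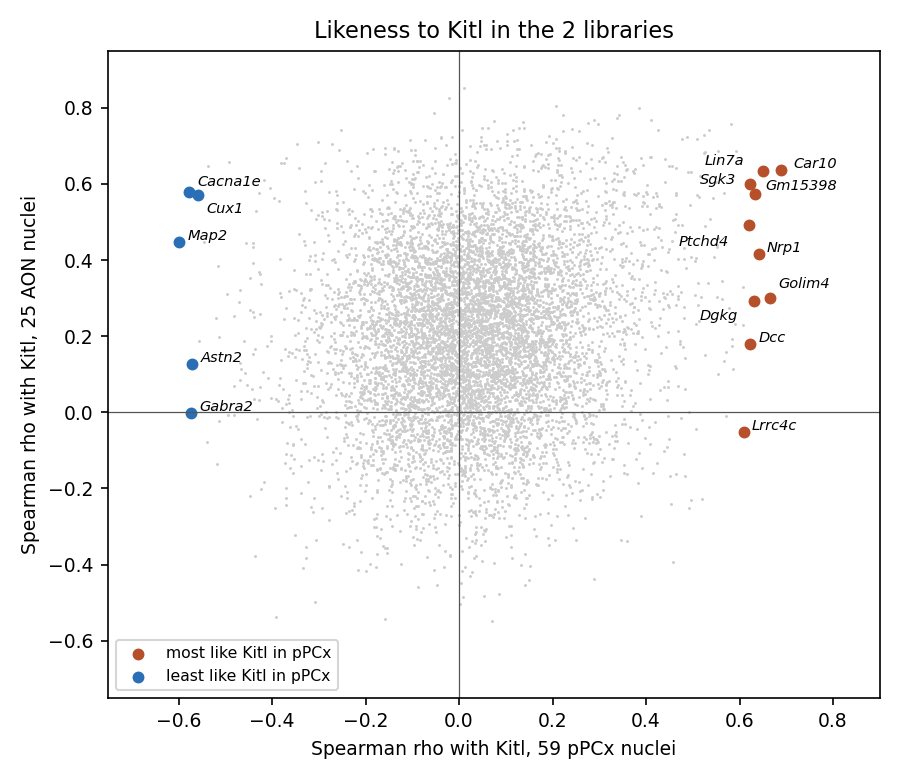
Spearman correlation with *Kitl* over 59 pPCx nuclei (horizontal axis) and over 25 AON nuclei (vertical axis) for each of 8026 genes (grey points), with the 10 most like (red) and 5 least like (blue) in pPCx named. *Car10*, *Lin7a*, *Sgk3* and *Gm15398* lie above 0.5 on both axes, and *Cacna1e*, *Cux1* and *Map2* are negative in pPCx and positive in AON.

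The same ranking for *Kit* in the 47 AON GABAergic nuclei rests on 2 nuclei with a UMI. Its highest correlation was 0.46, no gene passed 0.5, and its genes are therefore not named.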

How the data were processed

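Nuclei from mouse olfactory bulb were sorted for GFP and DRAQ5 and read with 10x Genomics 3′ chemistry, 1 library for each injection site. The authors deposited UMI counts per gene and barcode made with Cell Ranger, and the matrix header names version 3.1.0. The genome build behind these libraries is not given in the sources used here. The deposited counts are whole numbers, not normalized. The tables list 31053 Ensembl genes and 2 reporter sequences, and 31011 of the gene IDs occur in GENCODE M21, which gave the positions. According to the study's methods, the piriform library came from 1 mouse.

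Barcodes with 1000 or more genes were kept, the limit in the study's methods. The pPCx table holds 74 barcodes, the number of nuclei those methods give after that filter, and 63 of them passed it here. In the kept nuclei, mitochondrial genes gave at most 0.930% of UMIs. No doublet caller was run, since there were too few nuclei. Sums of UMIs over a class were divided by all UMIs of the class (CPM). Sums carry exact Poisson intervals, shares exact Clopper-Pearson intervals and ratios exact conditional intervals, all at 95% and for counting error only; nuclei of 1 library are not replicates. Log2 ratios had 0.5 UMI added to each sum. A gene needed 10 UMIs over both sums and was called at a ratio of 2 or more with the interval clear of 1. A count of 0 was read as allowing 3 UMIs. For shares, nuclei were thinned to 3000 UMIs. Likeness was Spearman's correlation over nuclei, of UMIs per 10000, for genes in at least 25% of the nuclei, and the 10 highest and 5 lowest were named. Of the pathway lists, the genes called were named; 1 listed signalling gene is not reported here. The scripts were tested on simulated data. The genes described, the lists and the limits were chosen with earlier results of these data known. Alternatives are in the closing section, and 4 of them were added after seeing the data. Python 3.11.15, numpy 2.4.6, scipy 1.17.1, pandas 2.3.3 and matplotlib 3.10.9 were used.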

Additional observations from a re-analysis of the deposited data

Results flagged for a closer look

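The AON barcodes with fewer than 1000 genes, which no comparison used, held *Kitl* above what a count of 0 allows. These 86 barcodes had 45 *Kitl* UMIs of 94666, or 475 CPM (347 to 636), against 159 CPM over the 102 kept AON nuclei. One barcode of 1729 UMIs and 485 genes held 30 of the 45, and it had no UMI of the excitatory or the GABAergic genes of the rule. The other 15 were spread over 10 barcodes, with at most 4 in one. Of the 86, 23 met the projection neuron rule, and they held 5 of the 45 UMIs. *Kit* had 1 UMI in these AON barcodes. The 11 pPCx barcodes with fewer than 1000 genes had 0 *Kitl* UMIs among 10682 and 1 *Kit* UMI. The cause was not tested.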

How the results depend on the processing

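No paired analysis was possible because there was 1 library per injection site. Other settings were run for the *Kitl* levels, shares and ratios, for *Kit* in the AON classes, for likeness and for the counts over all genes. None of the log2 ratios changed sign, while levels, shares and counts have no direction that could change. The *Kit* ratio between libraries, the T1 and ET2 groups and the calls within the gene lists were run under no other setting. Of 97 values computed under another setting, 62 stayed within the counting interval of the value in the report (for a count, within 1.5 times of it) and 35 moved; the cause was not tested unless the setting itself shows it. *Kitl* in AON projection neurons, 396 CPM in the report, was 456 CPM without nuclei over 3 times the median depth, 291 CPM with equal weights, 480 CPM when the 20 most abundant genes were left out of the scaling and 318 CPM without the nucleus richest in the gene. In pPCx projection neurons, 85.9 CPM became 45.3, 44.4, 107 and 45.3 CPM under the same 4 settings, the first and last of which leave out the same nucleus of 102 UMIs. *Kit* in AON GABAergic nuclei was 9.76 CPM without its richest nucleus. The log2 ratio of *Kitl* between AON projection neurons and GABAergic nuclei was 4.03 with equal weights. Between the libraries it was 3.32 without the deep nuclei, 2.71 with equal weights and 2.81 without the richest nucleus, and between the low and high pPCx nuclei 3.68, 3.59 and 3.68. The share of AON projection neurons with a *Kitl* UMI, 40.0% at 3000 UMIs, was 64.0% unthinned and 66.7% at 10000 UMIs, and the pPCx share, 6.78%, was 33.9% and 19.3%, so both depend on depth. Of the 10 genes most like *Kitl*, 6 were among the 10 highest by Pearson correlation, 6 among genes in at least 50% of nuclei (the other 4 were not in so many) and 0 after thinning to 3000 UMIs, where 4 nuclei kept *Kitl*. With at least 50 UMIs, the counts of genes higher and lower were 894 and 1004 between the AON classes, 374 and 537 between the libraries and 292 and 447 between the pPCx nuclei. At 4-fold they were 867 and 831, 294 and 455, and 212 and 432. In the report these were 1675 and 1731, 835 and 1061, and 585 and 1046. Both settings can only shorten these lists. *Kit* had 39 UMIs in all kept nuclei, 25 of them in 2 nuclei.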
